A study of Homo sapiens with 6 samples.

Results

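Chaperone genes were chosen by symbol, as every protein-coding gene of the HSPA, HSPB, HSPD, HSPE, HSPH and HSP90 families, the DNAJA, DNAJB and DNAJC families, and the CCT and TCP1 family. The rule found 83 genes among 58243 identifiers in the count tables, of which 19708 were protein-coding. The rule itself used no measured value, but the genes and their classes were chosen with earlier results of these data known. A total of 72 of the 83 passed the filter on low counts and were tested. The measurement was 4sU-seq of nascent RNA, in which cells take up the uridine analogue 4-thiouridine, so that RNA made during a short pulse can be biotinylated and pulled down. The cells were A375, a human melanoma line, stably transfected either with an empty vector (EV, libraries B1, B2 and B3) or with a plasmid expressing human PRL3 (HA-tagged where the study describes the protein), the phosphatase encoded by PTP4A3 (libraries B9, B10 and B11). Both groups were kept in 100 µg/ml Hygromycin B and pulsed with 500 µM 4sU for 20 min. The comparison asks how transcription differs in cells that overexpress PRL3. Each group is a line made by stable transfection and selection, so the plasmid and the history of the line cannot be told apart, and the labels do not say whether the 3 libraries of a group came from separate cultures, so p-values measure the spread between these libraries, which may be technical.

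The libraries held 36532207 to 57952035 reads counted on genes. The label check was the transfected gene, PTP4A3, which rose in PRL3 libraries with a log2 fold change of 6.80 (SE 0.25, adjusted p = 1.1e-08, edgeR). Of the melanocyte markers, SOX10 had at least 9882 counts, MITF at least 1004 and S100B at least 982 in every library, and SOX10 (log2 fold change -0.85, adjusted p = 0.00213) and S100B (-1.38, adjusted p = 3.1e-05) were lower in PRL3 libraries by edgeR's test. PMEL had 26 to 61 counts, and MLANA, TYR, TYRP1 and DCT, which define pigmented melanocytes, had at most 20 counts in any library. PTPRC (leukocyte), EPCAM (epithelial), PECAM1 (endothelial) and CD3E (T cell) had at most 21 counts. The share of uniquely aligned reads outside annotated exons was 30.2%, 28.7% and 41.1% in the EV libraries and 69.1%, 62.8% and 66.9% in the PRL3 libraries, so this share moved with every comparison of exon counts below, and its part in them was not tested.

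Molecular chaperones bind unfolded proteins and help them reach or regain their native fold. HSP70 proteins hold hydrophobic stretches through a cycle of ATP hydrolysis that J-domain proteins (the DNAJ families, also called HSP40) start, and nucleotide exchange factors reset the cycle. HSP90 takes kinases and receptors further along the same path, small HSPs hold unfolded proteins without ATP, and the chaperonin CCT, also called TRiC, encloses actin, tubulin and other substrates in a ring-shaped cavity. Heat shock factor HSF1 switches on the inducible genes through heat shock elements, while misfolded proteins in the endoplasmic reticulum (ER) act on a separate set of genes through ER stress elements. Melanoma cells, like other tumour cells, are known to express many chaperones at high levels.

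PRL3 libraries were lower than EV libraries for 37 of the 72 tested chaperone genes and higher for 3, and 32 did not pass the test (edgeR quasi-likelihood test, Benjamini-Hochberg adjusted p under 0.05). Thus 51.4% of the tested chaperone genes were lower, beside 22.7% of all genes and 31.6% of protein-coding genes. Higher calls were made for 4.17% of them, against 20.0% of all genes and 15.2% of protein-coding genes. The median log2 fold change of the tested chaperone genes was -0.46 (quartiles -1.14 and 0.10), with 52 of 72 below 0, whereas the median was 0.11 over all genes and -0.15 over protein-coding genes. For 41 of the 72 chaperone genes the 3 PRL3 libraries were all below the 3 EV libraries, for 9 they were all above, and for 22 the groups overlapped. Over all genes, the groups lay apart in 26.6% (below) and 29.7% (above). These shares were not taken over protein-coding genes alone, which were more often called lower and less often higher than all genes. In bulk RNA, fewer cells making a transcript and less of it made per cell cannot be told apart. Classes of chaperones differed in how many members were called, as the plot of all tested genes shows.

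**Figure D1:**
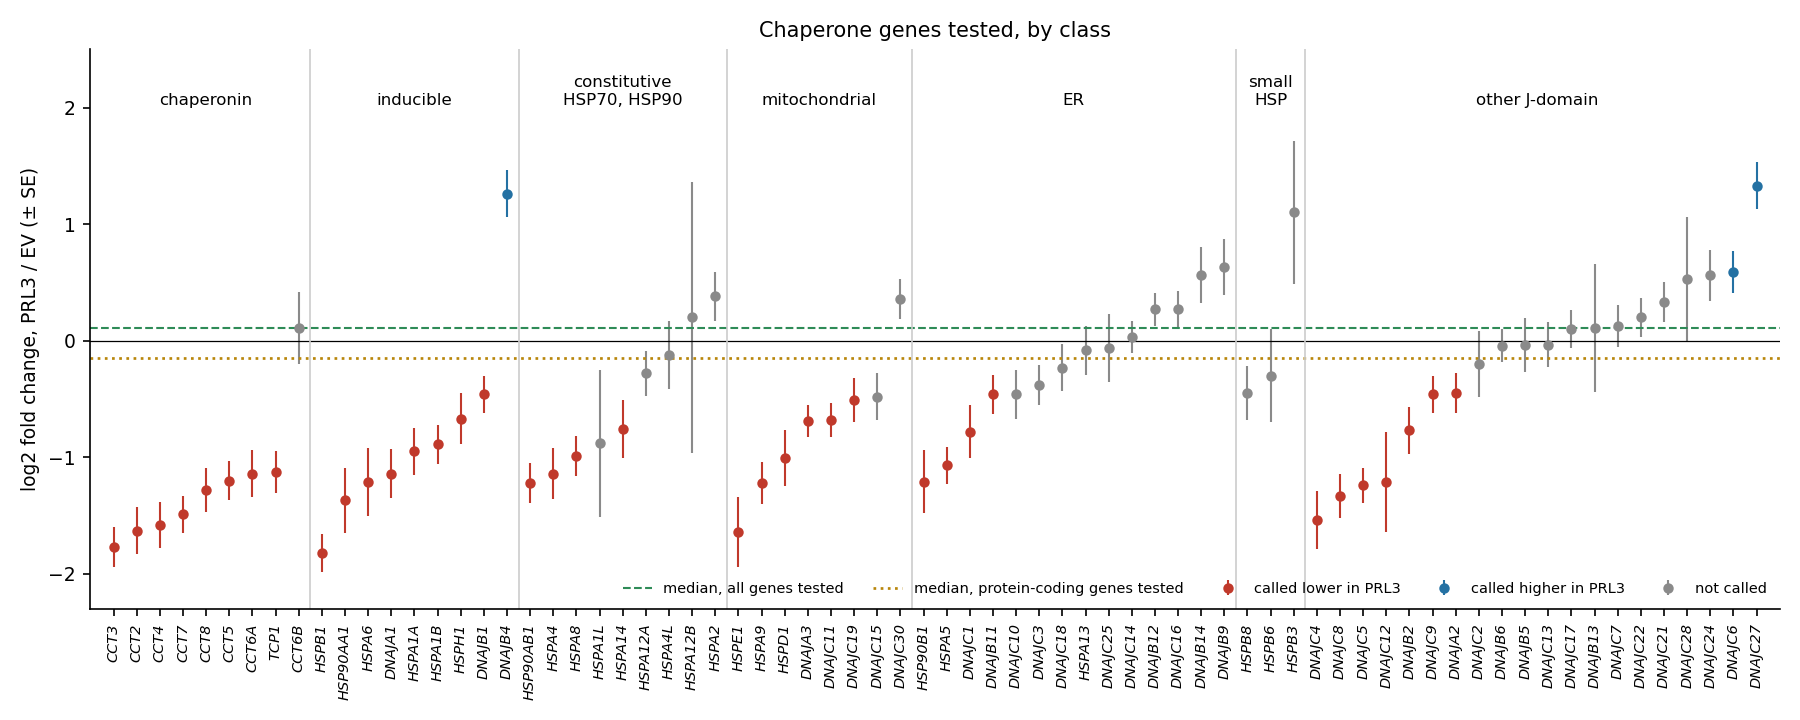
log2 fold change of PRL3 over EV libraries (vertical axis, edgeR, with bars of 1 SE, n = 3 libraries per group) for each of the 72 tested chaperone genes, sorted within 7 classes. Red marks the 37 genes called lower, blue the 3 called higher and grey the 32 not called; the dashed line is the median of all genes tested (0.11) and the dotted line that of protein-coding genes (-0.15).

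The chaperonin was the class with the lowest median. Of its 9 tested genes, 8 fell (88.9%, beside 31.6% of protein-coding genes) and none rose, with a median log2 fold change of -1.28. The 8 that fell encode the 8 different subunits of the CCT ring. Values are given as normalized counts, which are counts set to a common effective library size. CCT3 had 56881, 53746 and 40835 normalized counts in EV libraries B1, B2 and B3 and 13943, 16236 and 14198 in PRL3 libraries B9, B10 and B11. CCT5 had 57088, 45117 and 38960 normalized counts in EV and 18566, 22709 and 20295 in PRL3 libraries. TCP1, which encodes the alpha subunit, had 20731, 15151 and 13767 normalized counts in EV and 6254, 8124 and 8254 in PRL3 libraries. In all 8 genes, every PRL3 library was below every EV library, and the highest EV value came from library B1 for all but CCT7. CCT3 fell 3.41-fold (log2 fold change -1.77, SE 0.17, adjusted p = 1.2e-05). CCT2 (-1.63), CCT4 (-1.58), CCT7 (-1.49), CCT8 (-1.28), CCT5 (-1.20), CCT6A (-1.14) and TCP1 (-1.13) fell by smaller log2 fold changes, with SE of 0.16 to 0.20 and adjusted p of at most 0.00053 in edgeR's test. Permuting the library labels over the normalized counts gave an exact two-sided p = 0.1 for each, the smallest that 3 libraries against 3 allow.

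CCT6B, a testis form of the zeta subunit, was the exception among the tested genes. It had 114, 224 and 272 normalized counts in EV and 198, 228 and 233 in PRL3 libraries, and the groups overlapped (log2 fold change 0.11, SE 0.31, adjusted p = 0.813, edgeR). Per kb of exon its EV level was 47.5 normalized counts, where that of its counterpart CCT6A was 6256. CCT8L2, a single-exon gene of the same family, had 2 counts in EV library B2 and none in the others, and was not tested.

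**Figure D2:**
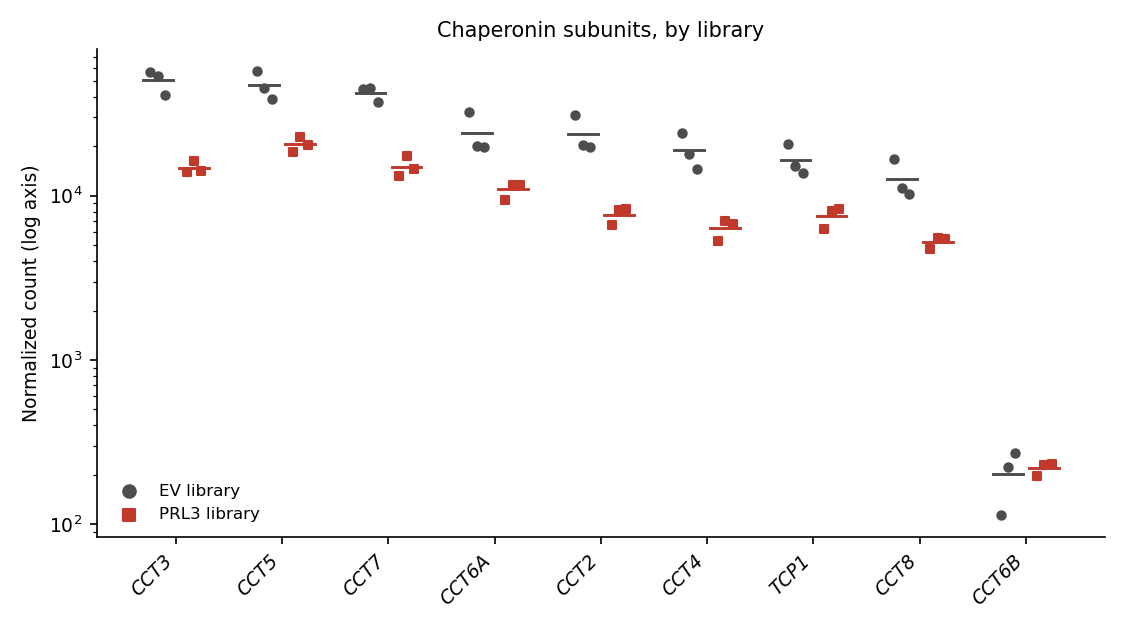
Normalized counts (vertical log axis) of the 9 tested chaperonin genes in each EV library (grey circles) and each PRL3 library (red squares), with horizontal lines at the group means (n = 3). The squares lie below the circles for the 8 ring subunits, while the groups overlap for CCT6B at 114 to 272 counts.

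The log2 fold changes of the 8 subunits ranged from -1.77 to -1.13. As a share of the counts of these 8 genes in each library, CCT3 made up 20.0%, 23.5% and 20.9% in EV libraries and 17.9%, 16.8% and 15.9% in PRL3 libraries. CCT5 made up 20.1%, 19.7% and 19.9% in EV and 23.8%, 23.5% and 22.7% in PRL3 libraries, so that CCT5 had more counts than CCT3 in each PRL3 library, while CCT3 had more in EV libraries B2 and B3 and the subunits were nearly level in B1. The shares of TCP1 (6.99% ± 0.34 in EV and 8.55% ± 0.628 in PRL3, SD, n = 3) and CCT6A (10.1% ± 1.31 and 12.4% ± 0.551) were also higher in every PRL3 library, and the shares of CCT2, CCT4, CCT7 and CCT8 overlapped. The exact permutation test of each of the 4 shares that did not overlap gave p = 0.1, the smallest possible. These shares are taken within a library, so they do not depend on how libraries are scaled.

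All 9 heat shock inducible genes were tested, with a median log2 fold change of -0.95. Of these, 8 fell (88.9%, beside 31.6% of protein-coding genes) and 1 rose (11.1%, beside 15.2%). HSPB1, the small HSP also called HSP27, had 4287, 5344 and 5034 normalized counts in EV libraries B1, B2 and B3 and 1347, 1514 and 1289 in PRL3 libraries B9, B10 and B11. It fell 3.53-fold (log2 fold change -1.82, SE 0.16, adjusted p = 8.7e-06), the lowest log2 fold change of any chaperone gene tested. HSP90AA1, the inducible cytosolic HSP90, had 141186, 57840 and 61924 normalized counts in EV and 35880, 31578 and 33221 in PRL3 libraries. Its EV mean was 86983 ± 46985 (SD, n = 3) and library B1 stood far above B2 and B3, but B2 and B3 also lay above every PRL3 library, and the gene fell 2.59-fold (log2 fold change -1.37, SE 0.28, adjusted p = 0.0016).

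The inducible HSP70 genes were lower as well. HSPA1A had 1727, 1783 and 1539 normalized counts in EV and 659, 1121 and 837 in PRL3 libraries, and HSPA1B had 2454, 2563 and 2686 normalized counts in EV and 1181, 1711 and 1262 in PRL3 libraries. Their log2 fold changes were -0.95 (SE 0.20, adjusted p = 0.00182) and -0.89 (SE 0.17, adjusted p = 0.00103) in edgeR's test. These genes are near-identical copies and reads with several alignments were not counted, so how well the counts separate the copies is uncertain. Apart from that, 36.6% of the exon bases of HSPA1B are shared with an annotated gene on the same strand that is not HSPA1A. HSPA1A had 65.8 ± 7.32 counts per 100 of HSPA1B in EV and 62.6 ± 5.87 in PRL3 libraries (SD, n = 3). HSPA6, a strictly inducible HSP70 with little expression in unstressed cells, had 200, 268 and 304 normalized counts in EV and 114, 132 and 85.8 in PRL3 libraries and fell 2.32-fold (log2 fold change -1.21, SE 0.29, adjusted p = 0.00467).

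Among inducible cochaperones, DNAJA1 fell 2.20-fold and HSPH1, the HSP110 exchange factor, fell 1.59-fold (adjusted p = 0.00078 and 0.0237, edgeR). DNAJB1, the J-protein that works with inducible HSP70, had 14903, 16570 and 16049 normalized counts in EV and 10031, 13728 and 10745 in PRL3 libraries and fell 1.38-fold (log2 fold change -0.46, SE 0.16, adjusted p = 0.0312). In contrast, its relative DNAJB4 had 475, 298 and 386 normalized counts in EV and 928, 908 and 949 in PRL3 libraries, and rose 2.40-fold (log2 fold change 1.26, SE 0.20, adjusted p = 0.00028). No PRL3 library overlapped an EV library for either gene. Within a library, DNAJB4 had 3.19, 1.80 and 2.41 counts per 100 of DNAJB1 in EV and 9.25, 6.61 and 8.83 in PRL3 libraries, a pair chosen after the values had been seen. Without PRL3 library B9 or B11, without EV library B2, or with upper-quartile scaling or protein-coding genes only, the call on DNAJB1 was lost, and it turned with library size alone. The call on HSPH1 was lost without EV library B1, without PRL3 library B9 or B11, with upper-quartile scaling, with protein-coding genes only and with library size alone (adjusted p of 0.0556 to 0.483).

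**Figure D3:**
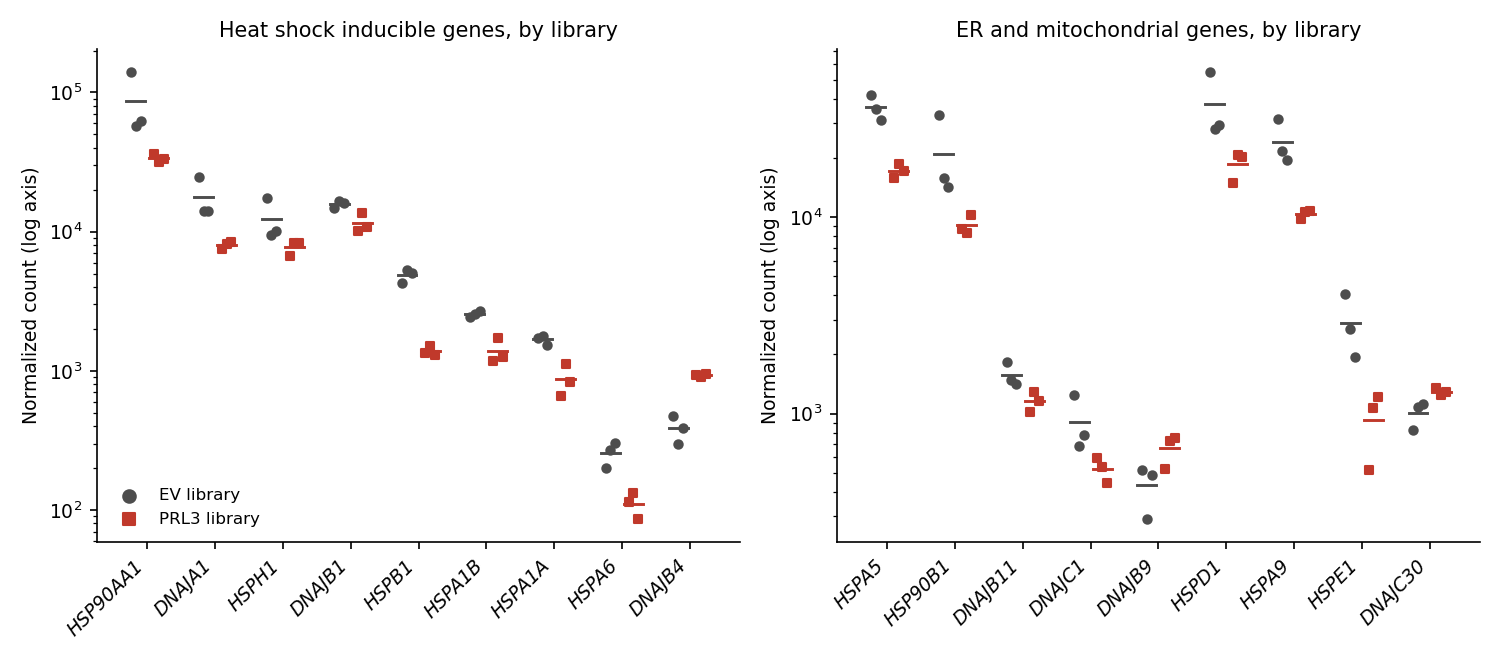
Normalized counts (vertical log axes) of the 9 heat shock inducible genes (left) and of 5 ER and 4 mitochondrial genes (right) in each EV library (grey circles) and PRL3 library (red squares), with lines at the group means (n = 3). DNAJB4 is the inducible gene whose PRL3 libraries (908 to 949) lie above the EV libraries (298 to 475); EV library B1, the leftmost circle of each gene, is far above the other EV libraries for HSP90AA1, HSP90B1 and HSPD1.

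The heat shock element is an array of GAA units in alternating orientation. Promoters of RefSeq genes (GRCh38.p14, from 250 bases before to 50 after each start site) were searched on both strands for the joined units GAANNTTC or TTCNNGAA, and for 3 units in a row, each of which contains such a pair. Of 35116 promoters, 13.5% held a pair and 0.49% held 3 units. The 74 chaperone genes matched to the table had 95 promoters, of which 27 (28.4%) held a pair and 7 held 3 units. A pair was in 9 of the 13 promoters of inducible genes (69.2%), in 4 of the 11 of chaperonin genes (36.4%) and in none of the 14 of ER genes. It was also in 3 of the 5 promoters of small HSP genes (60%) and 4 of the 12 of constitutive genes (33.3%). For mitochondrial genes it was in 3 of 11 (27.3%), and for other J-domain genes in 4 of 28 (14.3%). Counted by gene, 8 of 9 inducible genes had a pair in at least 1 promoter. The 200 bases before the start site are shown for 4 inducible genes, to set 3 that fell beside the 1 that rose, with the matched letters in capitals; for genes with several promoters a promoter that holds the motif is shown. They lie at chr1:161524340-161524539, plus strand (HSPA6), chr14:102087045-102087244, minus strand (HSP90AA1), chr19:14518398-14518597, minus strand (DNAJB1) and chr1:78004739-78004938, plus strand (DNAJB4).
HSPA6: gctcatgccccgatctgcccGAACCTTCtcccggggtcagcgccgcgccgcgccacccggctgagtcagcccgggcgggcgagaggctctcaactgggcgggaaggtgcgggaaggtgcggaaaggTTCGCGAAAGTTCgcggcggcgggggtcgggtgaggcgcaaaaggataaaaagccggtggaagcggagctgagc
HSP90AA1: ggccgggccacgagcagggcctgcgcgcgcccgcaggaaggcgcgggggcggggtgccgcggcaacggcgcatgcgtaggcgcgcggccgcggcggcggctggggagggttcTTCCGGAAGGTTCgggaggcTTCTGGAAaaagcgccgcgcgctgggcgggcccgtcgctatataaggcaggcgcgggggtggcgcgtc
DNAJB1: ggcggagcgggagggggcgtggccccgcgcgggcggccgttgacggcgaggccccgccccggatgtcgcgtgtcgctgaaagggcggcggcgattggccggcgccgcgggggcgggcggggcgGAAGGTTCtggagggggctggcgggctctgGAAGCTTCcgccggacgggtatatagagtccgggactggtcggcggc
DNAJB4: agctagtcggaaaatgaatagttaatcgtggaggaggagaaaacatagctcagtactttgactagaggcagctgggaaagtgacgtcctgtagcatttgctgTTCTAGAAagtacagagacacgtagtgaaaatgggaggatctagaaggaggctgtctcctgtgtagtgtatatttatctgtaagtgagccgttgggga
HSPA6 and HSP90AA1 each held 3 units in a row, beginning 74 and 88 bases before the start site. DNAJB1 held pairs beginning 77 and 47 bases before it, and DNAJB4 held 1 pair beginning 98 bases before it. HSP90AA1, DNAJB1 and DNAJB4 each also have a promoter with no pair, and no pair was found for HSPH1, which fell. The promoters shown were picked to hold a match, so they do not compare genes that fell with the gene that rose. Such a match describes letters and does not show that a factor binds there.

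Of the constitutive HSP70 and HSP90 genes, 4 of 9 tested fell (44.4%, beside 31.6% of protein-coding genes) and none rose (median log2 fold change -0.76). HSPA8, the constitutive HSC70 that folds new proteins and uncoats clathrin, had 219873, 163365 and 177602 normalized counts in EV and 90308, 99824 and 92349 in PRL3 libraries. HSP90AB1, the constitutive cytosolic HSP90, had 136084, 107389 and 100255 normalized counts in EV and 48054, 51798 and 47396 in PRL3 libraries. These genes had the highest levels of all chaperone genes per kb of exon, with EV means of 38554 and 38448 normalized counts per kb that differed by less than the spread between libraries. They fell 1.99-fold (log2 fold change -0.99, SE 0.17, adjusted p = 0.00039) and 2.33-fold (log2 fold change -1.22, SE 0.17, adjusted p = 7.8e-05). HSPA4, an HSP110-type exchange factor, had 18758, 10151 and 10327 normalized counts in EV and 5539, 6137 and 6143 in PRL3 libraries and fell 2.20-fold (adjusted p = 0.00099, edgeR). The fourth, HSPA14, named after its values had been seen, fell 1.69-fold (adjusted p = 0.0266). The other 5 genes had log2 fold changes between -0.88 and 0.38 and did not pass the test. Without EV library B1, 3 of these genes were called and the class median was -0.39, without EV library B3 the median was -0.30, and 3 were called when any 1 PRL3 library was left out.

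Mitochondrial chaperones followed, with 6 of 8 genes lower (75%, beside 31.6% of protein-coding genes), none higher and a median log2 fold change of -0.69. HSPD1 and HSPE1, which encode the matrix chaperonin HSP60 and its lid HSP10, lie side by side on chromosome 2. HSPD1 had 55007, 28144 and 29326 normalized counts in EV and 14873, 20592 and 20318 in PRL3 libraries, and HSPE1 had 4048, 2689 and 1951 normalized counts in EV and 516, 1066 and 1209 in PRL3 libraries. They fell 2.02-fold (log2 fold change -1.01, SE 0.24, adjusted p = 0.00441) and 3.11-fold (log2 fold change -1.64, SE 0.30, adjusted p = 0.0008). Per 100 counts of HSPE1, HSPD1 had 1359, 1047 and 1503 counts in EV and 2883, 1931 and 1680 in PRL3 libraries (exact permutation p = 0.1, the smallest possible; the pair was chosen after the values had been seen). For HSPE1, 10.5% of exon bases are shared with a readthrough gene. HSPA9, the matrix HSP70 also called mortalin, had 31405, 21729 and 19554 normalized counts in EV and 9825, 10569 and 10725 in PRL3 libraries and fell 2.34-fold (log2 fold change -1.22, SE 0.18, adjusted p = 0.00017).

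Among mitochondrial J-proteins, DNAJA3 (TID1, partner of HSPA9) fell 1.61-fold, DNAJC11, found at the cristae junctions, fell 1.61-fold, and DNAJC19, of the import motor, fell 1.42-fold (adjusted p = 0.00192, 0.00241 and 0.0425, edgeR). DNAJC15, a relative of DNAJC19, had 687, 602 and 510 normalized counts in EV and 373, 486 and 432 in PRL3 libraries; its log2 fold change of -0.48 did not pass the test (adjusted p = 0.0747) but did without EV library B3 (adjusted p = 0.029). DNAJC30, a single-exon gene, had 823, 1083 and 1116 normalized counts in EV and 1355, 1237 and 1282 in PRL3 libraries, with every PRL3 library above every EV library and a log2 fold change of 0.36 that did not pass the test (SE 0.17, adjusted p = 0.109). The call on DNAJC19 was lost without EV library B1 and when any 1 PRL3 library was left out (adjusted p of 0.0813 to 0.162). It was also lost with library size alone, upper-quartile scaling, protein-coding genes only and no low-count filter (adjusted p of 0.0524 to 0.944, edgeR).

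Of the 14 ER chaperone genes, 4 fell (28.6%, near the 31.6% of protein-coding genes) and none rose, and the median log2 fold change was -0.16, close to the -0.15 over protein-coding genes. The counts depended on the scaling, with 3 lower and 4 higher under upper-quartile scaling or with protein-coding genes only, 2 lower and 5 higher with library size alone, and 9 lower and none higher with all uniquely aligned reads; limma-voom gave 4 lower and 2 higher. HSPA5, the ER HSP70 known as BiP, had 41783, 35708 and 31252 normalized counts in EV and 15759, 18695 and 17265 in PRL3 libraries, and HSP90B1, the ER HSP90 known as GRP94, had 33160, 15880 and 14170 normalized counts in EV and 8741, 8336 and 10265 in PRL3 libraries. They fell 2.10-fold (log2 fold change -1.07, SE 0.16, adjusted p = 0.00017) and 2.31-fold (log2 fold change -1.21, SE 0.27, adjusted p = 0.00256). The transmembrane J-protein DNAJC1 fell 1.72-fold (adjusted p = 0.016) and the lumenal J-protein DNAJB11, also called ERdj3, fell 1.37-fold (adjusted p = 0.0445). Library B1 was the highest EV library for each of these 4 genes, and without it the calls on DNAJC1 and DNAJB11 were lost (adjusted p = 0.0635 and 0.102) and those on HSPA5 and HSP90B1 were not. The call on DNAJC1 was also lost without PRL3 library B10 or B11 and with library size alone. That on DNAJB11 was also lost without EV library B2 or any 1 PRL3 library. Other settings that lost it were upper-quartile scaling, protein-coding genes only, library size alone, no low-count filter and at least 10 counts in every library (adjusted p of 0.0531 to 0.869, edgeR).

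The other 10 ER genes did not pass the test. DNAJC10 (-0.46), DNAJC3 (-0.38), DNAJC18 (-0.23), HSPA13 (-0.08) and DNAJC25 (-0.06) had log2 fold changes below 0, and DNAJC14 (0.03), DNAJB12 (0.27), DNAJC16 (0.27), DNAJB14 (0.56) and DNAJB9 (0.63) had values above 0. DNAJB9, also called ERdj4, represses the stress sensor IRE1 and is itself a target of the unfolded protein response. It had 519, 290 and 486 normalized counts in EV and 525, 722 and 750 in PRL3 libraries, with every PRL3 library above every EV library, and missed the threshold in edgeR (SE 0.24, adjusted p = 0.0531) but passed it in DESeq2 (adjusted p = 0.0467) and limma-voom (adjusted p = 0.0378), and also without EV library B1 or B3 or PRL3 library B9 (adjusted p of 0.0259 to 0.0438). Per 100 counts of HSPA5, DNAJB9 had 1.24, 0.812 and 1.55 counts in EV and 3.33, 3.86 and 4.35 in PRL3 libraries, a pair chosen after the values had been seen.

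The ER stress element joins CCAAT to CCACG across 9 bases. It was found in 0.0769% of RefSeq promoters, and in 2 of the 14 promoters of ER chaperone genes, those of HSPA5 and HSP90B1. Those were also the ER genes with the lowest log2 fold changes. They had the highest EV levels of the ER class too, at 5551 and 1609 normalized counts per kb of exon, where the next was 589. A link between the element and the fold change was not tested. The 200 bases before the start site of both genes are shown with the element in capitals. They lie at chr9:125241344-125241543, minus strand (HSPA5) and chr12:103930210-103930409, plus strand (HSP90B1), in GRCh38.p14.
HSPA5: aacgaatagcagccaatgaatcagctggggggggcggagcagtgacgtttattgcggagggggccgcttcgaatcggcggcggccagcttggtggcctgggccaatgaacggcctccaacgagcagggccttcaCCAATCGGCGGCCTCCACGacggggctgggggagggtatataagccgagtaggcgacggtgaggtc
HSP90B1: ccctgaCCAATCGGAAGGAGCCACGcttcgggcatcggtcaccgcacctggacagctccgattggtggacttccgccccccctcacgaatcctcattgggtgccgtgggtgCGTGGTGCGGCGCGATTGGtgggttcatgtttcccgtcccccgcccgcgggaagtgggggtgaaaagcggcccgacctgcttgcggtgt
In HSPA5 the element begins 66 bases before the start site. HSP90B1 has it at 194 bases before the start site and again, on the opposite strand, at 89 bases before it. Looser forms of the element were not searched.

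Of the other J-domain genes, 7 of 20 tested fell (35.0%, near the 31.6% of protein-coding genes) and 2 rose (10%, beside 15.2%). The median log2 fold change was -0.036. The balance of these calls depended on 1 library and on the scaling, with 4 lower and 5 higher without EV library B1, 4 and 4 with upper-quartile scaling, and 3 and 8 with library size alone. Leaving out PRL3 library B9 or B10 also left 4 lower, and leaving out EV library B2 or PRL3 library B9 or B11 left 1 higher. DNAJC4 had 398, 669 and 547 normalized counts in EV and 152, 213 and 191 in PRL3 libraries and fell 2.90-fold (log2 fold change -1.54, SE 0.25, adjusted p = 0.00034). DNAJC8, known from spliceosomes, fell 2.51-fold, and DNAJC5, the cysteine string protein of secretory vesicles, fell 2.36-fold (adjusted p = 0.00013 and 4.2e-05, edgeR). The 4 others that fell had log2 fold changes of -1.21 to -0.45. DNAJC27, a Rab-like GTPase with a J domain, had 370, 337 and 347 normalized counts in EV and 944, 1025 and 681 in PRL3 libraries and rose 2.51-fold (log2 fold change 1.33, SE 0.20, adjusted p = 0.00019), the highest log2 fold change among the called chaperone genes. DNAJC6, or auxilin, which recruits HSC70 to clathrin coats, had 863, 671 and 959 normalized counts in EV and 1384, 1153 and 1218 in PRL3 libraries and rose (log2 fold change 0.59, SE 0.18, adjusted p = 0.0183). The call on DNAJC6 was lost without EV library B2, without PRL3 library B9 or B11, and with all uniquely aligned reads (log2 fold change 0.12, adjusted p = 0.651, edgeR). The 11 uncalled genes ranged from -0.20 to 0.56 on the log2 scale.

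Small HSPs outside the inducible class gave no call. HSPB8 (-0.45), HSPB6 (-0.30) and HSPB3 (1.10) were tested, with at most 358 normalized counts in any library. The 11 chaperone genes that were not tested had at most 26 counts in any library, and 4 of them had 0 in every library. These were the readthrough genes DNAJC25-GNG10 and HSPB2-C11orf52, in no class here, and DNAJB7 and HSPB2; at least 85.3% of the exon bases of each of these but DNAJB7 is shared with other genes on the same strand, and reads on shared bases are assigned to neither gene by the default mode of htseq-count. The other untested genes were CCT8L2, DNAJA4, DNAJB8, DNAJC5B, DNAJC5G, HSPB7 and HSPB9.

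Partners of the chaperones were taken from 4 lists, whose counts are read beside the 31.6% of protein-coding genes that were lower and the 15.2% that were higher. Of the heat shock factors and HSP70 or HSP90 cochaperones, 13 of 27 fell (48.1%) and 1 rose (median log2 fold change -0.66). HSPBP1, an exchange factor of HSP70, fell 5.08-fold and STUB1, the ubiquitin ligase CHIP, fell 3.81-fold (adjusted p = 9.8e-06 and 1.5e-05, edgeR). HSF1, the heat shock factor, had 4025, 5867 and 4513 normalized counts in EV and 2739, 3129 and 2524 in PRL3 libraries and fell 1.72-fold (log2 fold change -0.78, SE 0.17, adjusted p = 0.00254). Its relative HSF2 had 907, 578 and 540 in EV and 928, 1087 and 1067 in PRL3 libraries and rose 1.52-fold (log2 fold change 0.61, SE 0.21, adjusted p = 0.0333). The call on HSF2 was lost when either EV library B2 or B3 or any PRL3 library was left out. It was also lost with all uniquely aligned reads (log2 fold change 0.12, adjusted p = 0.704, edgeR). With library size alone, the call on HSF1 was lost (log2 fold change -0.29, adjusted p = 0.155, edgeR).

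The prefoldin and chaperonin partners were the prefoldin subunits, which hand substrates to CCT, prefoldin-like and phosducin-like proteins, and the tubulin cofactors, which act on tubulin after CCT. Of these, 13 of 15 fell (86.7%) and none rose (median -1.04). Their EV levels ran from 313 to 22360 normalized counts per kb of exon. Protein-coding genes were also divided into 10 bins by mean level over all 6 libraries. In the highest bin, from 1306 per kb up, 76.3% were lower, with a median of -1.07. The partner lists were not set beside genes of like level. PFDN5, a prefoldin subunit, had 16426, 16909 and 11775 normalized counts in EV and 3921, 4940 and 4211 in PRL3 libraries and fell 3.45-fold, and UXT, a prefoldin-like protein, fell 2.84-fold (adjusted p = 1.3e-05 and 1.5e-05, edgeR). Of the ER folding partners and unfolded protein response genes, 14 of 21 fell (66.7%) and 1 rose (median -0.95). EV levels in this list ran from 32.1 to 18928 normalized counts per kb. P4HB, the protein disulphide isomerase, fell 3.32-fold and CRELD2 fell 2.95-fold (adjusted p = 1.3e-05 and 1.8e-05), while HERPUD1, of ER-associated degradation, rose 1.35-fold (2765, 2794 and 2812 in EV and 3450, 4084 and 3730 in PRL3 libraries, adjusted p = 0.0265). Of the mitochondrial partners, 4 of 11 fell (36.4%) and 2 rose (18.2%), shares near those of protein-coding genes (median -0.19). CLPP, a matrix protease, fell 3.62-fold and TRAP1, the mitochondrial HSP90, fell 2.49-fold (adjusted p = 1.7e-05 and 2.8e-05), while GRPEL2, an exchange factor of HSPA9, and HSCB, a J-protein of iron-sulphur cluster assembly, rose 1.67-fold and 1.56-fold (adjusted p = 0.00427 and 0.0151). The calls on HERPUD1 and HSCB were lost without PRL3 library B10 or B11. With all uniquely aligned reads, the calls on HERPUD1, GRPEL2 and HSCB were all lost. Their log2 fold changes were then -0.048, 0.26 and 0.16 (adjusted p = 0.846, 0.295 and 0.584, edgeR).

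Lower calls were most frequent among chaperone genes with high levels, and the same was seen over protein-coding genes. When the 14443 protein-coding genes tested were divided into 10 bins of equal size by their mean level per kb of exon over all 6 libraries, 18 of the 72 chaperone genes lay in the highest bin, including the 8 CCT ring genes, 4 inducible genes, 3 constitutive genes, 2 mitochondrial genes and HSPA5. All 18 were lower, with a median log2 fold change of -1.21. However, 76.3% of the 1445 genes of that bin were lower and 5.95% were higher, and the others of that bin had a median of -1.07. In the next bin, 8 of 9 chaperone genes were lower, beside 57.1% of all genes of that bin. The chaperone genes there had a median of -0.89 against -0.53 for the others. In the bin below that, 3 of 8 chaperone genes were lower, beside 42.7% of all genes of that bin, with a median of -0.12 against -0.30. Across the 72 chaperone genes the log2 fold change and the mean level had a Spearman correlation of -0.62, and across protein-coding genes of -0.33 (n = 14443); both measures come from the same 6 libraries, and genes are not independent replicates. With gene length, the correlation was 0.16 over chaperone genes and 0.30 over protein-coding genes.

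**Figure D4:**
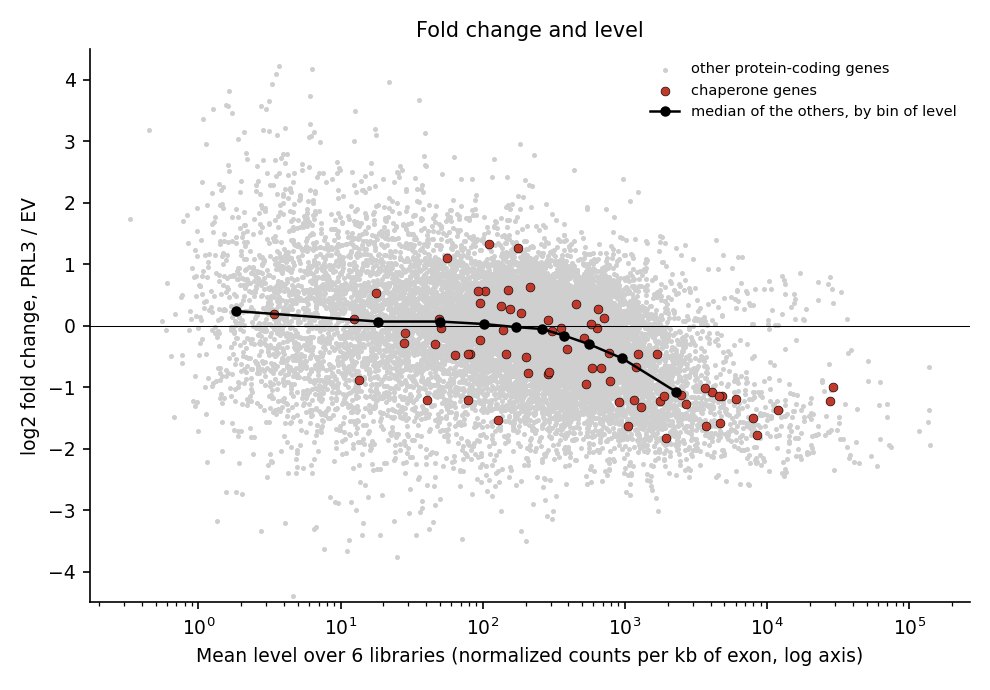
log2 fold change of PRL3 over EV libraries (vertical axis) against the mean level over 6 libraries (horizontal log axis, normalized counts per kb of exon) for the 72 chaperone genes (red) and the other protein-coding genes tested (grey), with the median of the others in each of 10 bins of level (black). The black line goes from 0.24 in the lowest bin to -1.07 in the highest, where the 18 chaperone genes have a median of -1.21; 24 genes outside the plotted range, none of them a chaperone gene, are left out.

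As a share of all gene counts, a measure that amounts to scaling by library size alone, the chaperone genes took up 1.98%, 1.41% and 1.48% in EV and 1.10%, 1.10% and 1.11% in PRL3 libraries. HSPA8, HSP90AB1 and HSP90AA1 made up 39.3% to 43.7% of these chaperone counts in each library, so the share describes the most abundant members; the median log2 fold change over all tested chaperone genes with library size alone was 0.026. The chaperonin class went from 0.421% ± 0.065 (SD, n = 3) to 0.221% ± 0.0119, the constitutive class from 0.566% ± 0.0848 to 0.380% ± 0.00741, and the mitochondrial class from 0.146% ± 0.0357 to 0.104% ± 0.0051. The groups did not overlap for these shares (p = 0.1 in the two-sided exact permutation test, the smallest possible). The other J-domain genes took up 0.101% ± 0.0124 in EV and 0.119% ± 0.00464 in PRL3 libraries, and the groups overlapped (exact permutation p = 0.2).

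EV library B1 stood apart for these genes. It was the highest EV library for 47 of the 72 tested chaperone genes (65.3%), where it was the highest for 39.9% of protein-coding genes, and the median log2 ratio of B1 to the mean of B2 and B3 was 0.36 over chaperone genes and 0.01 over protein-coding genes. By class this ratio was 0.52 in the chaperonin, 0.41 in the ER class, 0.40 in the mitochondrial class and 0.06 in the inducible class. Without B1, 29 chaperone genes were lower and 8 higher and the median was -0.37, so the count of higher calls moved from 3 to 8 with that library left out, while 8 chaperonin and 7 inducible genes were still lower.

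The fold changes depended on how the libraries were scaled. With library size alone, the median of all genes tested moved from 0.11 to 0.60, and 22 chaperone genes were lower and 17 higher in place of 37 and 3. With upper-quartile scaling 29 were lower and 11 higher. With all uniquely aligned reads as the library size, the median of all genes was -0.36, and 46 were lower and 2 higher. Of the inducible genes 4 were lower with library size alone, and of the mitochondrial genes 2. Relative to the median of all genes tested, the chaperonin class lay at -1.39, the inducible class at -1.06, the mitochondrial class at -0.80 and the ER class at -0.27; a scaling adds nearly the same amount to every gene, so these distances are not evidence on the scaling. With protein-coding genes only, which changes both the scaling and the genes tested, they were -1.12, -0.80, -0.54 and -0.0035. The 8 CCT ring genes were called lower under each of the 5 scalings. Of 48 called genes that were followed singly, DNAJB1 and DNAJB11 turned to 0.023 and 0.036 on the log2 scale with library size alone. HERPUD1 turned to -0.048 with all uniquely aligned reads.

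**Figure D5:**
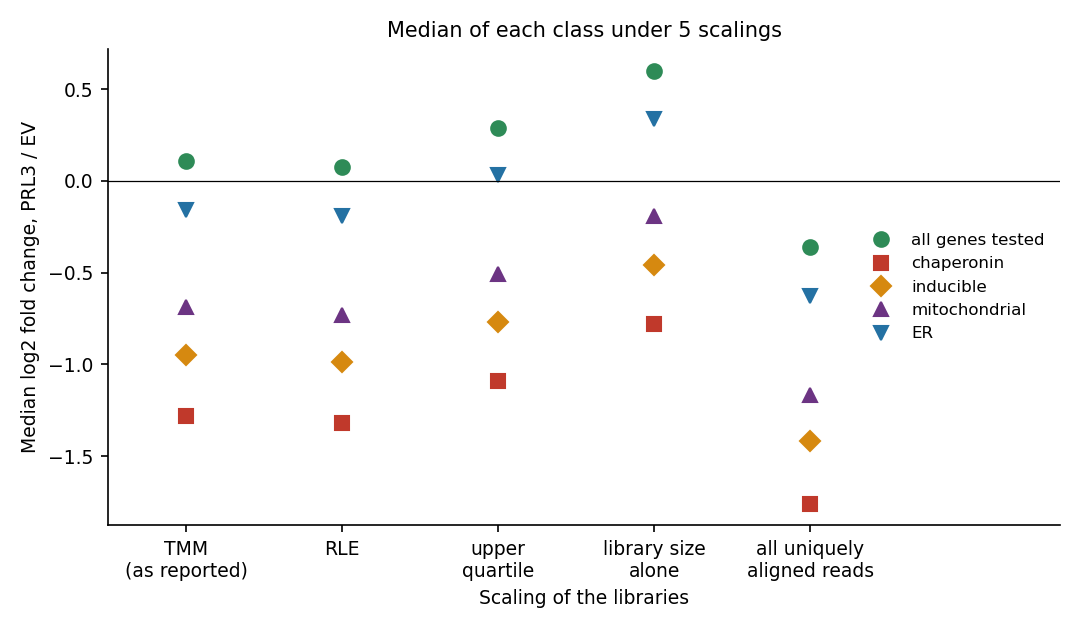
Median log2 fold change of PRL3 over EV libraries (vertical axis) for all genes tested and for 4 chaperone classes under 5 scalings of the libraries (horizontal axis). The chaperonin median stays below 0 under each scaling (-0.78 to -1.76) and the ER median changes sign (0.34 with library size alone, -0.63 with all uniquely aligned reads); a scaling moves every gene by nearly the same amount, so the order of the classes is fixed.

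Reads shared with near-identical copies could touch some of these values. The count data held 107 rows for pseudogenes of chaperone genes, of which 40 were tested (median log2 fold change -1.15). Of those tested, 17 were lower (42.5%, beside 22.7% of all genes) and 10 were higher (25%, beside 20% of all genes). HSPA8P1 had the highest EV mean, 568 ± 229 in normalized counts (SD, n = 3), beside 186947 ± 29390 for HSPA8. DNAJC8P2 had the highest PRL3 mean, 797 ± 238 (SD, n = 3), beside 2126 ± 69.7 for DNAJC8, and its EV mean was 250 ± 57.2 beside 5340 ± 1477.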

How the data were processed

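4sU-labelled RNA from A375 cells was sequenced in 6 strand-specific libraries, 3 EV and 3 PRL3. Per the study's methods and the submitters' processing notes, reads were checked with FastQC 0.11.3 and aligned to GRCh38 with STAR 2.5.1b, and the authors deposited raw counts of reads per gene from HTSeq 0.6.1 with Ensembl annotation release 91, without normalization; the count of reads on the exons of the expected strand leaves out reads in introns, ambiguous reads and reads with several alignments. Exon counts of 4sU RNA therefore also depend on splicing and on carried-over mature RNA.

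Gene names, biotypes and exon lengths came from GENCODE release 44, on the same build, and 57532 of 58243 identifiers matched. Groups were compared with edgeR 4.0.16 in R 4.3.3 (TMM scaling, filterByExpr by group, quasi-likelihood test, Benjamini-Hochberg adjustment over 23884 genes, threshold 0.05), and rows that name no gene were left out. The procedure was also run on simulated data in which few genes changed, as many up as down. That run therefore does not bear on the choice of scaling. A normalized count is a count over its effective library size, times the mean of that size over libraries. Single values were compared by two-sided exact permutation tests, whose smallest p is 0.1. Depth was 36532207 to 57952035 gene counts per library.

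Alternatives were scaling by library size alone, upper quartile or RLE, all uniquely aligned reads, DESeq2 1.42.0, limma-voom (limma 3.58.1), no low-count filter, at least 10 counts in every library, protein-coding genes only, an adjusted p of 0.01, and leaving out each library. Within-library ratios, shares and bins of level were added after the values had been seen. All members of the inducible, ER, mitochondrial and chaperonin classes could be named, from the other classes the 6 genes per direction with the smallest p and no overlap, and HSPA8, HSP90AB1 and HSPA4, and from each partner list 2 per direction and HSF1. Of 75 partner genes listed, 74 matched. The members, classes and lists were chosen with earlier results of these data known. Promoter sequences came from RefSeq (GRCh38.p14), where 74 of the 83 genes matched; protein sequences were not used here.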

Additional observations from a re-analysis of the deposited data

Results flagged for a closer look

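The reads that the counter put outside annotated exons are not counted for any gene above, and enter only as part of the library size when all uniquely aligned reads set the scaling. They made up 66.3% ± 3.18 (SD, n = 3) of uniquely aligned reads in PRL3 libraries, above the 33.3% ± 6.75 in EV libraries, with no overlap (two-sided exact permutation p = 0.1, the smallest possible). They cannot be assigned to chaperone genes from counts per gene, and their part in the results was not tested.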

How the results depend on the processing

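No paired analysis was possible because the EV and PRL3 libraries share no replicate number. The 8 chaperonin genes called lower stayed at 8 under all 16 alternatives. With library size alone, 22 chaperone genes were lower and 17 higher, with 4 inducible, 2 mitochondrial and 2 ER genes lower, and the medians were 0.026 over all chaperone genes, -0.46 (inducible), -0.19 (mitochondrial), -0.78 (chaperonin) and 0.34 (ER). With all uniquely aligned reads the medians were -0.94 over all chaperone genes, -1.42 (inducible), -1.17 (mitochondrial), -1.76 (chaperonin) and -0.63 (ER), and 9 ER genes were lower. Upper-quartile scaling and protein-coding genes only each gave 11 higher calls and a median of -0.28, with an ER median of 0.031 and 0.027. At least 10 counts, limma-voom and no filter gave 6 higher calls each, and an adjusted p of 0.01 left 2 ER genes lower. Leaving out 1 library gave 29 to 38 lower and 2 to 8 higher chaperone genes, medians of -0.56 to -0.37, and 2 to 4 lower ER genes. A chosen part of the genes was followed singly through the settings. Of these, DNAJB1 (0.023), DNAJB11 (0.036) and DNAJC15 (0.015) changed sign with library size alone. DNAJC30 (-0.12), CCT6B (-0.36) and HERPUD1 (-0.048) did so with all uniquely aligned reads, and CCT6B also when 1 library was left out (-0.18 to 0.36). Further chaperone genes changed sign without being followed singly. Of the 72 tested, 34 were below 0 with library size alone and 64 with all uniquely aligned reads, in place of 52. The cause of these changes was not tested beyond the scaling itself. With DESeq2, RLE and limma-voom, all 48 called genes that were followed singly kept their call. With 3 libraries per group, chaperone genes with few counts have wide errors (log2 SE of 0.40 for HSPB6 and 1.16 for HSPA12B), and exon counts do not separate transcription from splicing.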

Other observations

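The pseudogene rows of chaperone genes included DNAJC8P2, which rose 3.18-fold in PRL3 libraries (201, 236 and 313 normalized counts in EV and 1069, 627 and 697 in PRL3 libraries, adjusted p = 0.00019, edgeR), while DNAJC8 itself fell 2.51-fold. HSPD1P1 (log2 fold change -2.47) and HSPA8P1 (-2.27) fell by more than their parent genes HSPD1 (-1.01) and HSPA8 (-0.99). These pseudogenes were named after their values had been seen, and the differences from the parent genes were not tested. Reads with several alignments were not counted, so how well the counts separate near-identical copies is uncertain.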
